A study of Arabidopsis thaliana with 4 samples.

Results

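Cytochrome P450 genes were followed in Arabidopsis thaliana plants that express the transcription factor CBF2 from the 35S promoter, against wild type plants. The genes were all those with a probe set annotated to exactly 1 gene whose symbol starts with CYP, then 2 or 3 digits, then a letter, with no condition on signal. This gave 23 genes, 1 probe set each, of 13513 probe sets with exactly 1 gene. They belong to 5 P450 families. Family 71 held 19 of the 23, all of them of subfamily CYP71B, and families 51, 78, 79 and 84 held 1 each. The gene table used for names lists 236 genes with a symbol of this form, and the other 213 were not analysed here, so most of the P450 genes of hormone, wax and lignin metabolism are outside the set.

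RNA was measured on 4 Affymetrix ATH1 arrays, 2 of 35S::CBF2 plants and 2 of wild type plants of the accession Ws-2. The source label of the 35S::CBF2 samples names the transgene and no accession. The plants of both groups were whole, 10 days old, and grown on plates at 24 °C in continuous light of 100 µmol per square metre and second, after 4 days at 4 °C to break dormancy. Each group was grown as 4 plates of about 100 plants, and the labels do not say which plates gave which array, so the spread between arrays may be technical. The 35S promoter, from a plant virus, is active in most plant tissues and does not confine a transgene to one cell type. The titles of the 35S::CBF2 samples carry different codes, although the treatment text of both names the same code. Whether these samples are of 1 line is not settled by the labels. Both of these titles give replicate number 1, so 35S::CBF2 replicates 1 and 2 are numbered here, not by the labels. CBF2 itself was not analysed here, so the transgene's level does not check the labels.

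Cytochrome P450 enzymes are heme proteins that insert an oxygen atom into small molecules, with electrons that come from NADPH through a reductase, and most plant members sit in the endoplasmic reticulum. Plants have large P450 families that build or break down hormones, sterols, pigments, lignin precursors, waxes and defence compounds. Genes of the CYP71B subfamily often lie next to each other on the chromosome. The best known member of this subfamily, PAD3 (CYP71B15), which is not among the 23, makes the last step to the defence compound camalexin, and the function of many others is not known.

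The P450 genes with enough signal to be tested showed no difference between 35S::CBF2 and wild type past the threshold. Of the 23 genes, 6 were tested, all of subfamily CYP71B, and 0 passed the threshold in either direction. A gene counted as changed at an adjusted p below 0.05, from limma on log2 signal, adjusted by the method of Benjamini and Hochberg over the 13647 tested probe sets. Over the whole array 3.36% of tested probe sets passed, 2.11% higher and 1.25% lower in 35S::CBF2, so among 6 genes 0 calls is near that background and says nothing particular about P450 genes. At an unadjusted p below 0.05 the count was also 0 of 6, where 13.1% of all tested probe sets passed. The median log2 difference, 35S::CBF2 minus wild type, was -0.10 over the 6 genes and -0.04 over all tested probe sets. The signal is the MAS5 value, linear and scaled by the authors to the same trimmed mean on each array, and a probe set was tested when its geometric mean over the 4 arrays was above 24.8.

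**Figure D1:**
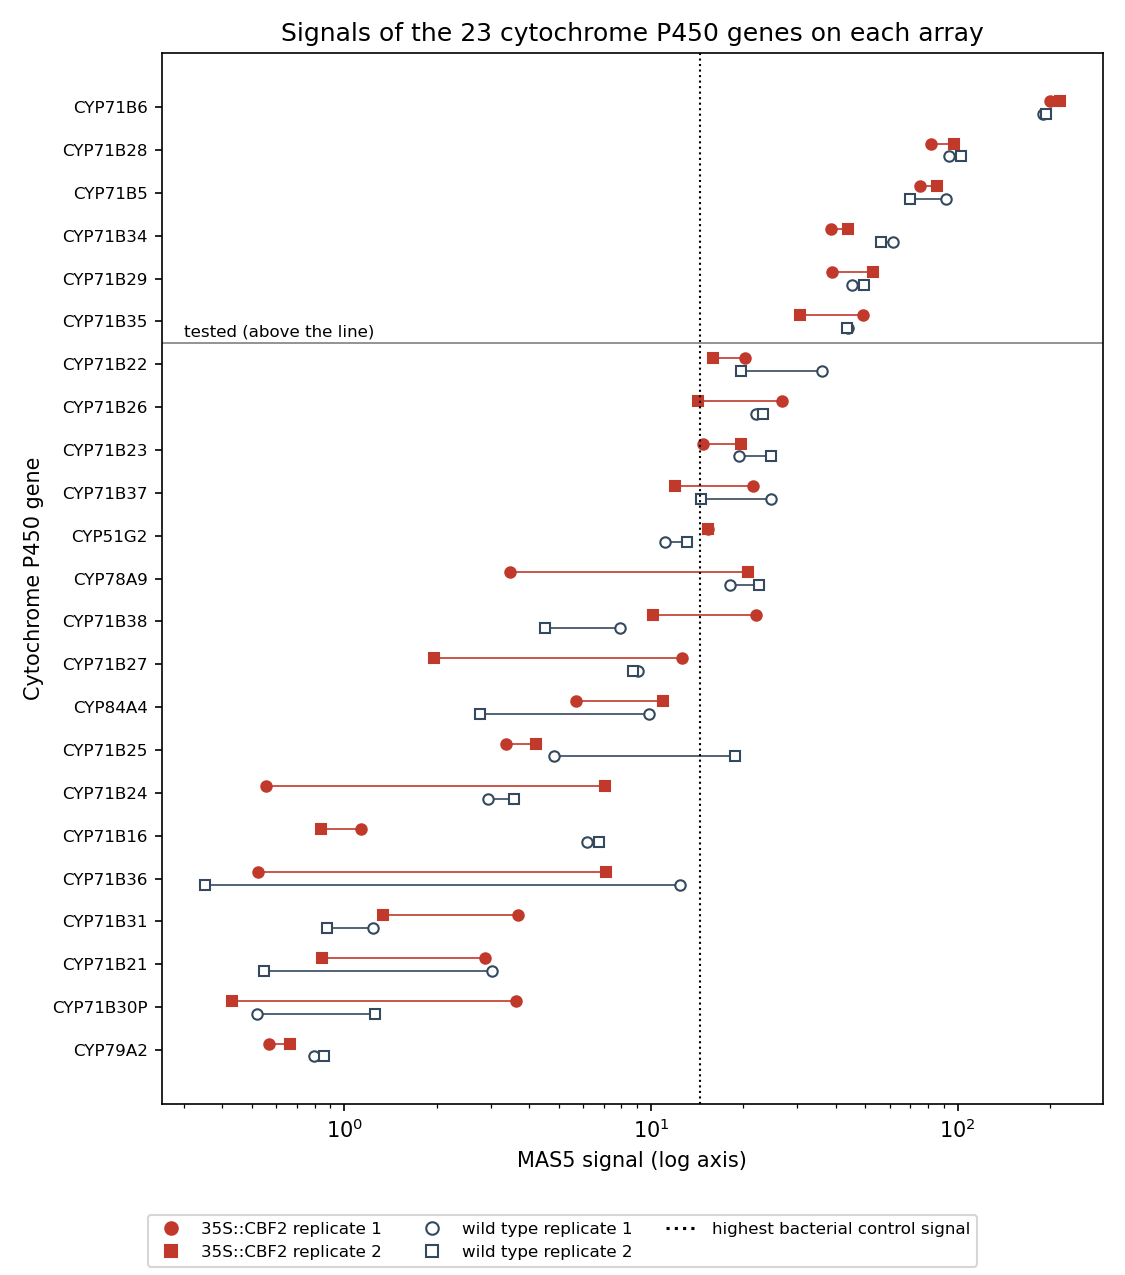
MAS5 signal (log axis) of each of the 23 P450 genes on the 35S::CBF2 arrays (filled red) and the wild type arrays (open), with a line joining the arrays of a group and a dotted line at the highest bacterial control signal, 14.5. The 6 genes above the horizontal line were tested; most genes under it have at least 1 array left of the dotted line, and 9 have all 4 there.

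CYP71B6 has a described role in defence metabolism. The enzyme converts indole-3-acetonitrile, an intermediate near the camalexin route, towards indole carboxylic acids. Its signals were 201 and 215 on the 35S::CBF2 arrays and 190 and 194 on the wild type arrays. Each 35S::CBF2 array exceeded each wild type array, by a small margin. The log2 difference was 0.11 ± 0.18 (SE, n = 2 per group), a ratio of 1.08 with a 95% interval of 0.827 to 1.42 (limma, adjusted p = 0.890). The interval leaves room for a rise of up to 1.42-fold or a fall to 0.827 of wild type, and the p does not show that the levels were equal.

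CYP71B34 had the largest difference of the 6 tested genes. Its signals were 38.6 and 44.0 on the 35S::CBF2 arrays and 61.7 and 56.3 on the wild type arrays. Each 35S::CBF2 array was below each wild type array. The log2 difference was -0.52 ± 0.26 (SE, n = 2 per group), with a 95% interval of -1.09 to 0.05, and it did not pass (limma, unadjusted p = 0.0716, adjusted p = 0.451). As a ratio this is 0.699 with an interval of 0.470 to 1.04, which includes no difference as well as a fall of more than 2-fold. The smallest difference among all called probe sets of the array was 0.62 on the log2 scale in size.

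CYP71B35, the gene next to CYP71B34, had signals of 49.2 and 30.6 on the 35S::CBF2 arrays and of 43.9 and 43.4 on the wild type arrays. The 35S::CBF2 arrays lay on either side of the wild type arrays, which were nearly equal. The log2 difference was -0.17 ± 0.31 (SE), a ratio of 0.889 with an interval of 0.551 to 1.44 (limma, adjusted p = 0.913). Without 35S::CBF2 replicate 2 the log2 difference was 0.17 and without replicate 1 it was -0.51, so that its direction rested on which array was used.

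CYP71B28 and CYP71B29 are direct neighbours on chromosome 1. CYP71B28 had signals of 82.1 and 97.2 on the 35S::CBF2 arrays and of 93.9 and 103 on the wild type arrays, with overlapping groups. Its log2 difference was -0.14 ± 0.21 (SE), a ratio of 0.910 with an interval of 0.657 to 1.26 (limma, adjusted p = 0.890). CYP71B29 had signals of 38.9 and 52.8 on the 35S::CBF2 arrays and of 45.2 and 49.5 on the wild type arrays. Here the 35S::CBF2 arrays enclosed both wild type arrays, with a log2 difference of -0.06 ± 0.28 (SE) and an interval of the ratio of 0.625 to 1.47 (limma, adjusted p = 0.970). The sign of CYP71B29 turned without 35S::CBF2 replicate 1 (0.16) and, at 0.00, without wild type replicate 2.

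CYP71B5 had signals of 75.1 and 85.7 on the 35S::CBF2 arrays, between the wild type values of 91.3 and 69.9. Its geometric mean was 80.2 in 35S::CBF2 and 79.9 in wild type, a log2 difference of 0.01 ± 0.23 (SE) with an interval of -0.51 to 0.52 (limma, adjusted p = 0.996). Its sign turned without 35S::CBF2 replicate 2 (-0.09) and without wild type replicate 2 (-0.19).

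**Figure D2:**
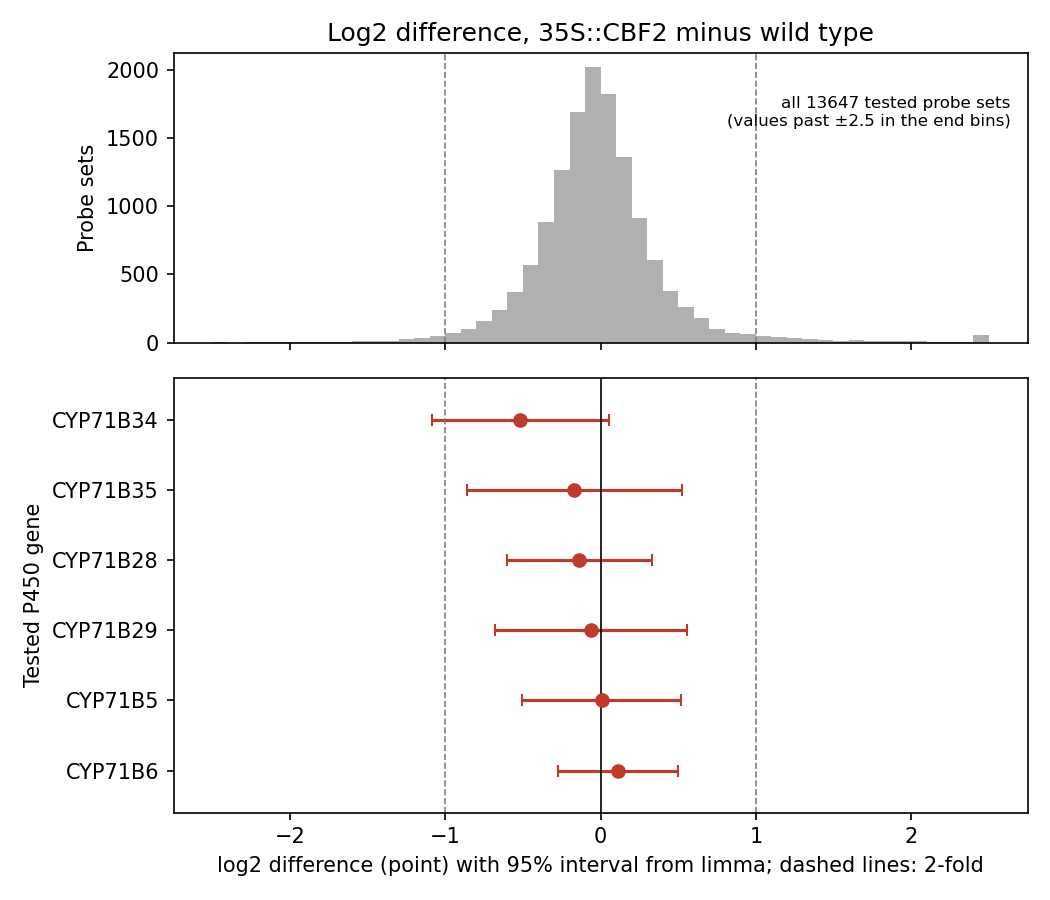
Upper panel: number of tested probe sets by log2 difference, 35S::CBF2 minus wild type. Lower panel: the 6 tested P450 genes with limma's 95% interval; dashed lines mark 2-fold. The intervals of all 6 include 0, and that of CYP71B34 alone crosses the line of a 2-fold fall.

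Across the 6 tested genes the groups were apart in 2, CYP71B6 and CYP71B34, in opposite directions, where 41.7% of all tested probe sets had groups that did not overlap. The 95% interval lay within 2-fold in both directions in 5 of the 6 genes, and these intervals are for 1 gene at a time, not adjusted for their number. Both 35S::CBF2 arrays lay on the same side of the wild type mean in 3 of 6. 35S::CBF2 replicate 1 was below the wild type mean in 4 of 6 genes and replicate 2 in 3 of 6. The arrays of a group differed by at most 1.61-fold in 35S::CBF2 and 1.31-fold in wild type. The pooled SD within groups had a median of 0.18 on the log2 scale (range 0.05 to 0.34), against 0.20 over all tested probe sets.

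The other 17 genes lay below the filter and were not tested. The tested gene with the lowest signal, CYP71B35, had a geometric mean of 41.2 over the 4 arrays, and the untested gene closest to the filter, CYP71B22, one of 21.9. As a mark of background served the brightest value that any of 27 bacterial control probe sets reached on any array, which was 14.5. Of the 17 genes, 9 lay under this floor on all 4 arrays, 6 on some arrays, and 2 were above it on all arrays. Among the 23 genes, 34.8% were above the floor on all 4 arrays and 39.1% on none, where all probe sets with exactly 1 gene gave 57.5% and 24.2%. In whole plants, few transcripts per cell and few cells that carry a transcript give the same low signal and cannot be told apart.

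Of the untested genes, 11 (64.7%) had a lower mean in 35S::CBF2 and 6 a higher one, where 56.2% of all untested probe sets were lower. The median log2 difference of the 17 was -0.24, against -0.14 over all 9099 untested probe sets. The pooled SD within groups had a median of 0.77, close to the 0.79 of all untested probe sets. Arrays of a group differed by up to 13.6-fold in 35S::CBF2 and 35.4-fold in wild type. These values are a description of signals near or below background. A mean difference of 2-fold or more was seen in 5 of the 17 (29.4%), 3 lower and 2 higher. Over all untested probe sets the share was 34.5%, so this count says nothing particular about P450 genes.

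**Figure D3:**
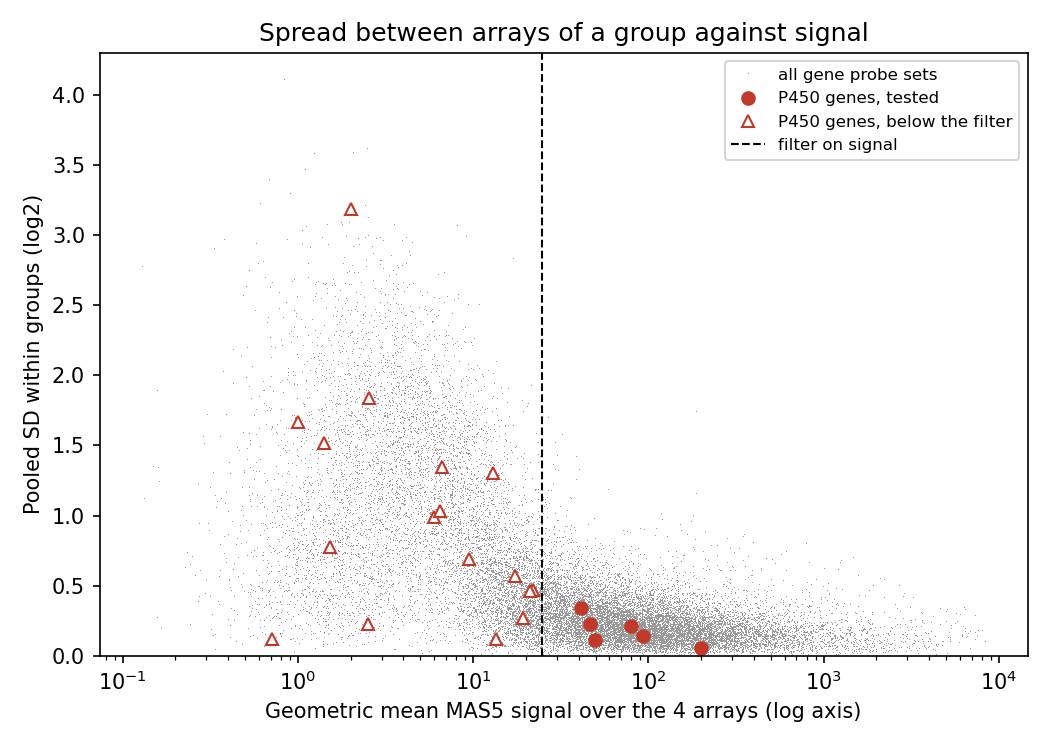
Pooled SD of log2 signal within groups against the geometric mean signal over 4 arrays (log axis), for all gene probe sets (grey) and the P450 genes (red; filled where tested, open triangles where below the filter). The tested P450 genes have SDs of 0.05 to 0.34, and those left of the dashed filter line reach 3.19.

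Most of the CYP71B genes measured lie in one stretch of chromosome 3, where CYP71B16 and CYP71B37 are the outermost of 11 genes of the set among 25 genes in the gene table. In the TAIR10.1 gene table CYP71B21, CYP71B22, CYP71B23 and CYP71B24 form a run of neighbours with at most 1 gene between them, and CYP71B25, CYP71B26, CYP71B34, CYP71B35, CYP71B36 and CYP71B37 form another. Near copies can share transcript sequence. All 23 probe sets carry the array's plain name, with no mark for probes shared between genes, which does not show that no related transcript binds them. In this stretch 4 genes were above the floor on all arrays, 3 on some and 4 on none, so measurable and unmeasurable genes lay side by side.

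CYP71B22 and CYP71B23 are adjacent and were above the floor on all 4 arrays. CYP71B22 had signals of 20.3 and 15.9 on the 35S::CBF2 arrays and of 36.1 and 19.7 on the wild type arrays, with overlapping groups. CYP71B23 had signals of 14.8 and 19.6 on the 35S::CBF2 arrays and of 19.3 and 24.5 on the wild type arrays, again with overlap. In both genes the highest of the 4 values was from a wild type array.

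CYP71B26 had signals of 26.8 and 14.2 on the 35S::CBF2 arrays, on either side of the wild type values of 22.0 and 23.2. CYP71B37 had signals of 21.5 and 12.0 on the 35S::CBF2 arrays and of 24.6 and 14.6 on the wild type arrays. In both, and in CYP71B35 between them on the chromosome, 35S::CBF2 replicate 2 was the lower of the 35S::CBF2 arrays and the lowest array of the 4. In the other genes of this run, CYP71B25, CYP71B34 and CYP71B36, replicate 2 was the higher of the 35S::CBF2 arrays. CYP71B25 had signals of 3.38 and 4.22 on the 35S::CBF2 arrays and of 4.83 and 18.7 on the wild type arrays, where 1 wild type array alone exceeded the floor.

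CYP71B16 lies at the outer end of the stretch. Its signals were 1.13 and 0.841 on the 35S::CBF2 arrays and 6.16 and 6.76 on the wild type arrays. The groups were apart, yet all 4 values lay under the floor of 14.5, so no fold is given. The remaining genes of the stretch, CYP71B21, CYP71B24 and CYP71B36, were under the floor on every array. CYP71B21 had signals of 2.87 and 0.848 on the 35S::CBF2 arrays and of 3.04 and 0.546 on the wild type arrays. CYP71B24 had signals of 0.554 and 7.06 on the 35S::CBF2 arrays and of 2.94 and 3.56 on the wild type arrays. CYP71B36 had signals of 0.523 and 7.11 on the 35S::CBF2 arrays and of 12.4 and 0.351 on the wild type arrays, the widest scatter of the set. In 10 of the 11 genes of the stretch the mean log2 difference was below 0, against 55.7% of all gene probe sets. Of the 11, 9 were not tested and in 8 the groups overlapped. Near copies can share transcript sequence, so the 11 signs may not be independent. In 3 of the 11 both 35S::CBF2 arrays lay below both wild type arrays, as in 22.8% of all gene probe sets. Those 3 were CYP71B16, CYP71B25 and CYP71B34, and CYP71B34 alone of them was tested.

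**Figure D4:**
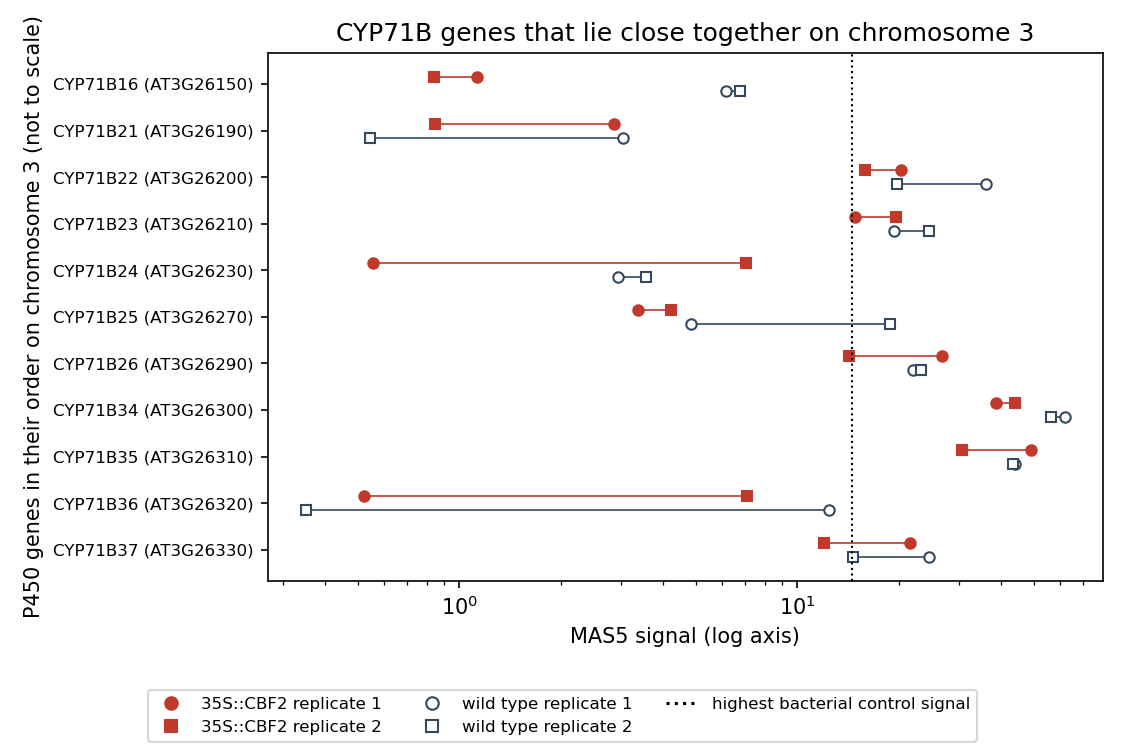
MAS5 signal (log axis) of the 11 P450 genes of the stretch on chromosome 3, from top to bottom in their order on the chromosome with their locus tags, for the 35S::CBF2 arrays (filled red) and the wild type arrays (open). CYP71B34 and CYP71B35 are the tested genes, and 4 genes lie left of the dotted line, the floor of 14.5, on all arrays.

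On the same chromosome CYP71B5 and CYP71B30P are direct neighbours. CYP71B30P, whose name marks it as a pseudogene although the gene table lists it as protein coding, had signals of 3.64 and 0.430 on the 35S::CBF2 arrays and of 0.520 and 1.26 on the wild type arrays. CYP71B31, a gene close by whose enzyme oxidises the floral scent compound linalool, had signals of 3.67 and 1.33 on the 35S::CBF2 arrays and of 1.24 and 0.876 on the wild type arrays. Both genes were under the floor on every array, so that no fold is given, although CYP71B5, the direct neighbour of CYP71B30P, was above it on all arrays. CYP71B27, on chromosome 1 and listed as a transcribed pseudogene, was also under the floor on every array, with 12.7 and 1.96 in 35S::CBF2 and 9.05 and 8.75 in wild type.

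CYP71B38, which lies alone on chromosome 3, had signals of 22.0 and 10.2 on the 35S::CBF2 arrays and of 7.94 and 4.50 on the wild type arrays. Both wild type arrays were under the floor and 1 of 2 35S::CBF2 arrays was above it. The groups were apart, and no fold is given, since 35S::CBF2 replicate 2 was under the floor. The gene was below the filter and has no test.

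The 4 genes outside family 71 have better described enzymes or relatives, and none of the 4 could be tested. CYP84A4 takes part in the synthesis of arabidopyrones, which branch from phenylpropanoid metabolism. Its signals were 5.71 and 11.0 on the 35S::CBF2 arrays and 9.87 and 2.76 on the wild type arrays, all under the floor. CYP79A2 converts phenylalanine to its oxime, the start of benzylglucosinolate synthesis. Its signals were 0.569 and 0.664 on the 35S::CBF2 arrays and 0.797 and 0.855 on the wild type arrays, all under the floor.

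CYP78A9 belongs to a family that promotes organ and seed growth. It had signals of 3.46 and 20.7 on the 35S::CBF2 arrays and of 18.1 and 22.4 on the wild type arrays. 3 of its 4 arrays were above the floor, and the exception was 35S::CBF2 replicate 1. The value of 35S::CBF2 replicate 2 lay between the wild type values, and no fold is given, since replicate 1 was under the floor.

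CYP51G2 is listed as a transcribed pseudogene related to the sterol demethylase gene of family 51. Its signals were 15.3 and 15.3 on the 35S::CBF2 arrays and 11.1 and 13.1 on the wild type arrays. The groups were apart and straddled the floor, and against that floor the 35S::CBF2 mean was at least 1.06-fold higher, with no test.

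Of all 23 genes, 8 had groups that did not overlap, 4 higher and 4 lower in 35S::CBF2, and over all gene probe sets of the array 39.2% did so. The 4 higher were CYP71B6, CYP71B38, CYP71B31 and CYP51G2, and the 4 lower were CYP71B16, CYP71B25, CYP71B34 and CYP79A2. Of these 8 genes 3 were under the floor on every array and 2 were tested. The count of non-overlapping genes was therefore near that of the array.

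The P450 genes were also ordered by known role. Of 11 role lists with 93 names, 5 lists held a gene of the set, with 6 genes in all and 1 of them, CYP71B6, tested. Each of the lists for P450 genes of jasmonate, brassinosteroids, abscisic acid, gibberellin, cytokinin and strigolactone, and cutin and wax held 0 genes of the set. Neighbouring steps of the same routes were read from 7 further lists with 155 names, of which 13 had a probe set with 1 gene and 10 were tested. Of these 10, 0 passed (limma, lowest adjusted p = 0.109), 3 had an unadjusted p below 0.05 (13.1% of all tested probe sets had one), and log2 differences ran from -0.73 to 0.65. The lists for abscisic acid, jasmonate and the electron donors of P450 enzymes had 0 genes with such a probe set.

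The 3 with an unadjusted p below 0.05, singled out after their values were seen, were UGT74B1, HCT and UGT78D2. In each of them the groups did not overlap, as in 41.7% of all tested probe sets. UGT74B1, which adds the glucose in glucosinolate synthesis after the P450 steps, had signals of 103 and 87.4 on the 35S::CBF2 arrays and of 142 and 174 on the wild type arrays. Its log2 difference was -0.73 ± 0.21 (SE, n = 2 per group, limma, adjusted p = 0.109). With the title letter as a block its adjusted p was 0.0467. HCT, which makes the ester used by the P450 of lignin synthesis, had signals of 558 and 586 on the 35S::CBF2 arrays and of 839 and 692 on the wild type arrays. Its log2 difference was -0.41 ± 0.16 (SE; limma, adjusted p = 0.274). UGT78D2, a flavonoid glucosyltransferase, had signals of 192 and 300 on the 35S::CBF2 arrays and of 160 and 146 on the wild type arrays. Its log2 difference was 0.65 ± 0.23 (SE; limma, adjusted p = 0.205), and it rested on single arrays, with 0.97 (adjusted p = 0.0277) without 35S::CBF2 replicate 1 and 0.33 (adjusted p = 0.803) without replicate 2.

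Arrays were of similar overall brightness, with medians over gene probe sets of 42.4 and 39.6 on the 35S::CBF2 arrays and of 42.1 and 41.6 on the wild type arrays. Spiked-in hybridisation controls on 35S::CBF2 replicates 1 and 2 had 0.637 and 1.97 times the wild type geometric mean, against 1.01 and 0.985 on the wild type arrays. The part of this in the P450 values was not tested beyond leaving out each array, which gave 0 called P450 genes each time. The organ mix was read from 3 root genes and 4 photosynthesis genes with a probe set, of 7 listed for each. Their summed root signals were 1486 and 2133 in 35S::CBF2 and 1948 and 1555 in wild type, with log2 differences from -0.26 to 0.04 and 0 calls. Nearly all of the root sum came from PYK10, with 1429 and 2046 in 35S::CBF2 and 1872 and 1473 in wild type. The summed photosynthesis signals were 20556 and 17282 in 35S::CBF2 and 20261 and 19394 in wild type, with log2 differences from -0.12 to -0.03 and 0 calls. Of 3 flower and 3 seed genes listed, 0 had a probe set with 1 gene.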

How the data were processed

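RNA of 2 35S::CBF2 and 2 wild type samples was measured, 1 array each. The deposited values are signal intensity per probe set on a linear scale. Per the submitters' processing notes they come from MAS5, in a version not given in the sources used here. Deposited values of each array have a 2%-trimmed mean of 100.0, and were not scaled again. Detection calls were not used. Of 22810 probe sets, 64 controls were left out. Names came from a 2016 platform annotation, updated by gene identifier with the RefSeq gene table of TAIR10.1: 13513 probe sets carry 1 gene, of which 13436 matched, 503 carry several genes and 8730 are unlisted, and neither were named. A P450 name stands among several genes in 2 probe sets, which were left out.

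Probe sets with a mean log2 signal above the 40th percentile were tested with limma (version 3.58.1, run in R 4.3.3), a linear model per probe set followed by eBayes with trend = TRUE. The tests were two-sided, and p-values were adjusted by Benjamini-Hochberg across all tested probe sets, named or not. The fit was tested on simulated data. The number of arrays limits the precision. The genes and lists were chosen with earlier results of these data known. Tests are given for the tested P450 genes and for 3 tested pathway genes singled out afterwards. Genes below the filter are given as signals, CYP51G2 also with a bound against the floor. Promoter sequence was not used here, so the planned motif count was not run. Alternatives changed scaling, filter, offset, floor, variance model, block, arrays and naming.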

Additional observations from a re-analysis of the deposited data

Results flagged for a closer look

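On 35S::CBF2 replicate 2 the spiked-in hybridisation controls, which no comparison uses, had 1.97 times the geometric mean of the wild type arrays, which stood at 1.01 and 0.985. What drew attention to this array was a control signal above both wild type values. Groups of 2 arrays are too small to test a single array of a P450 gene as an outlier.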

How the results depend on the processing

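The filter at the floor of the bacterial controls was added after seeing the data; the other alternatives were planned. The count of called P450 genes was 0 in each of them, higher and lower, also with no filter, when all 23 were tested, with 10 tested above the floor, at an adjusted p under 0.1 and by a 2-fold rule over the 4 pairs of arrays. The 2-fold rule took only genes past the filter. The untested CYP71B16 would have met it, with 1.13 and 0.841 in 35S::CBF2 and 6.16 and 6.76 in wild type, all under the floor. With no filter CYP71B16 alone had an unadjusted p under 0.05, and its adjusted p of 0.389 (limma) was the lowest of the 23. Without the intensity trend CYP71B34 alone had one under 0.05, with an adjusted p of 0.340 (limma). Adjusted p ranged from 0.340 to 0.776 for CYP71B34 and from 0.577 to 0.999 for the other 5 tested genes. The median log2 difference of the tested P450 genes (-0.10) was 0.0061 with the filter at the 60th percentile, which left 3 of them, and ran from -0.17 to 0.043 when each array was left out, above 0 without 35S::CBF2 replicate 1; the 1 SD spread of this median between arrays was 0.11. With arrays left out in turn, 5 tested genes spanned 0: CYP71B29 from -0.28 (without 35S::CBF2 replicate 2) to 0.16 (without 35S::CBF2 replicate 1), with 0.0044 without wild type replicate 2; CYP71B35 from -0.51 (without 35S::CBF2 replicate 1) to 0.17 (without replicate 2); CYP71B5 from -0.19 (without wild type replicate 2) to 0.20 (without wild type replicate 1), with -0.09 without 35S::CBF2 replicate 2; and, without 35S::CBF2 replicates 1 and 2, the pathway genes DFR (0.80 and -0.015) and GID1C (-0.66 and 0.13). The called pathway genes (0) numbered 1 under the title-letter block, and 0 to 1 when arrays were left out, and the called probe sets of the whole array (458) were 205 without the trend, 229 with the 2-fold rule, 661 under that block, and 270 to 605 when arrays were left out, each lone array taken to vary like the other group. The cause was not tested. Replicate numbers could not serve as a block, because the titles of both 35S::CBF2 samples carry replicate number 1. The block used was the title letter, whose meaning is not given. Signals near or under the floor limit what can be said of 17 of the 23 genes.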
